A study of Homo sapiens with 8 samples.

Results

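The genes described are 10 human genes of prostaglandin synthesis, transport, breakdown and reception: PLA2G4A, PTGS1, PTGS2, PTGES, PTGES2, PTGES3, SLCO2A1, HPGD, PTGER2 and PTGER4. The pathway was chosen by measured values: PTGS2 was known to be among the highest changes in PC9 cells when it was picked. Every probe set annotated with 1 of these symbols alone was taken, which gave 32 of the 49495 probe sets on the array and 10 of 18244 genes. Gene expression was measured on single-colour arrays in A549 and PC9, established human non-small cell lung cancer lines. The 4 groups, of 2 arrays each, were A549 cells infected with an EN2 retrovirus, A549 cells infected with the control Neo retrovirus (vector), PC9 cells with the EN2 retrovirus and PC9 cells with the Neo vector. All groups were stable infected populations, selected with genemycin (as the labels spell it) and made with virus from 293FT packaging cells, so the controls had been through the same infection and selection. EN2 encodes engrailed 2, a homeobox transcription factor of the developing midbrain and hindbrain. A549 was grown in F-12K and PC9 in Dulbecco's modified Eagle medium, so line and medium cannot be told apart. Labels do not state whether the replicates came from separate cultures, so p-values reflect only how far these arrays spread, perhaps for technical reasons.

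Prostaglandin E2 is a short-lived lipid signal made on demand. Cytosolic phospholipase A2 (PLA2G4A) frees arachidonate from membranes, the cyclooxygenases PTGS1 and PTGS2 convert it to prostaglandin H2, and the E synthases PTGES, PTGES2 and PTGES3 finish the molecule. The transporter SLCO2A1 takes it up from outside the cell, HPGD oxidises it to an inactive form, and the receptors PTGER2 and PTGER4 couple to cyclic AMP. PTGS2 is the inducible cyclooxygenase and is often high in lung adenocarcinoma, whereas HPGD opposes it by clearing the product.

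The largest differences lay between the 2 lines, for PTGS2, PLA2G4A and HPGD, and were smaller for the other genes. For PTGER4 the EN2 change in A549 (log2 1.08) was about the size of its difference between the lines with vector (-0.97). With vector alone, A549 read 44.5-fold above PC9 for PTGS2, at least 45.4-fold above it for PLA2G4A and 5.03-fold above it for HPGD. Within A549, PTGER4 was 2.12-fold higher with EN2 than with vector in its brightest probe set, the only 1 of the 10 genes called there. Its second probe set was higher too but did not pass. Within PC9, PTGS2 was 2.23-fold higher with EN2, which is the value that prompted the choice of the pathway.

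The labels were checked first with EN2 itself. Its brighter probe set read 7.71 and 7.62 on the A549 EN2 arrays against 6.48 and 6.57 on the A549 vector arrays (log2 of the RMA value, as are all values given). In PC9 it read 6.24 and 6.39 with EN2 against 5.86 and 5.78 with vector. The EN2 arrays lay above the vector arrays in both lines. In A549 the difference of 1.15 ± 0.091 (log2, SE) was called by limma at an adjusted p of 0.00028, whereas that of 0.50 ± 0.091 in PC9 was not (adjusted p = 0.0801). A dimmer EN2 probe set differed by 0.050 in A549 and 0.16 in PC9.

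The arrays of each group correlated at 0.997 over probe sets, with array medians of 6.33 to 6.35 for A549 and of 6.10 to 6.11 for PC9. Background was read as the 95th percentile of 100 ERCC spike-in probe sets, which the labels do not mention, at 4.42 in A549 and 3.94 in PC9. Both lay well below the array medians, so a value above background does not by itself show that a gene is expressed. All 6 epithelial markers were above it in every group, as were NKX2-1, NAPSA, SFTPB and SFTPC, and so were 3 of 6 fibroblast markers (COL1A1, COL1A2 and PDGFRB) and 3 of 5 measured leukocyte markers (CD3E, CD14 and CD68). Of these lists COL3A1, DCN, LUM, PTPRC and LYZ were below background in every group. Of 4 endothelial markers, 3 were above background in A549, where CDH5 was not, and 4 in PC9. The median of the 6 epithelial markers was 10.61 and 10.65 on the A549 EN2 arrays against 11.09 and 11.13 on the A549 vector arrays, with 4 of the 6 called lower, among them CDH1 at -1.11 and KRT19 at -0.70. The 18S rRNA control signal, a mean of 3 probe sets, was 11.66 and 12.12 on the A549 EN2 arrays against 12.44 and 12.74 on the A549 vector arrays, and 6.05 to 6.10 on all PC9 arrays. The part of these markers in the results was not tested.

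Promoter windows are shown for the 3 genes on which the results turn: PTGS2 and PLA2G4A, which are neighbours on chromosome 1 and had the 2 largest differences between the lines, and PTGER4, the gene called in A549. Between PTGS2 and PLA2G4A the annotation lists 1 gene, PACERR, which the array annotation does not name. RefSeq windows from 250 bases before to 50 bases after the gene start (GRCh38.p14) were found for 9 of the 10 genes, all but SLCO2A1. The windows lie at chr1:186680374-186680673 on the minus strand for PTGS2, chr1:186828699-186828998 on the plus strand for PLA2G4A and chr5:40679665-40679964 on the plus strand for PTGER4. Capitals mark matches, on either strand, to any of 7 motifs whose letters are spelled out after the sequences.
PTGS2: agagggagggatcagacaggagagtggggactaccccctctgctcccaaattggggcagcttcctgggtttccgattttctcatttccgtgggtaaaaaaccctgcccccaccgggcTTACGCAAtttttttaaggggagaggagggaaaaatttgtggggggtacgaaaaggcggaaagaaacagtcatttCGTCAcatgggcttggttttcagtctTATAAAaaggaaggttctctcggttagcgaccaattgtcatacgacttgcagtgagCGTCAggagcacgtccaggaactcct
PLA2G4A: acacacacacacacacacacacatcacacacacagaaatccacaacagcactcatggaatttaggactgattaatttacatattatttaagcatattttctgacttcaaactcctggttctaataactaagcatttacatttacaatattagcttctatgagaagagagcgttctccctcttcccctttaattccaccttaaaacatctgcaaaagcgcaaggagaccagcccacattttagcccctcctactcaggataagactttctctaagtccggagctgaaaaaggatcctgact
PTGER4: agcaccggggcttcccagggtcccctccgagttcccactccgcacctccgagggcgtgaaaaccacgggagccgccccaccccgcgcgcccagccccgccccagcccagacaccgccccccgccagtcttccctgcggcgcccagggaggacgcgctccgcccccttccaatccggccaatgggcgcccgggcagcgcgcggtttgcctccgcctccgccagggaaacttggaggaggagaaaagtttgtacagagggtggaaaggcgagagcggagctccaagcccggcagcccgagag

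The core that homeodomains of the engrailed type bind was searched as TAATTA. The TATA box, which positions the transcription machinery, was searched as TATAAA. For the cyclic AMP response element, both the full palindrome TGACGTCA and its shorter core, CGTCA, which overlaps the palindrome, were searched. The AP-1 site of the FOS and JUN factors was searched as TGANTCA, the E-box as CACGTG and the site of C/EBP factors as TTNNGCAA.

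The PTGS2 window held TATAAA at -32 from the gene start, CGTCA at -58 and at 25, and TTACGCAA, a match to the C/EBP letters, at -133. Of all 35116 promoter windows of the same length, 11.5% held TATAAA, 24.6% held CGTCA and 10.5% held the C/EBP letters. The PLA2G4A and PTGER4 windows held none of the motifs. TATAAA was also found in a PTGS1 window at -208, CGTCA in windows of PTGES3, PTGER2 and HPGD, and CACGTG in windows of PTGES2 and HPGD. TAATTA, present in 4.84% of all windows, was in no window of these genes, nor were TGACGTCA (1.85%) and TGANTCA (7.71%), while CACGTG was in 7.26% of all windows. GC content was 50.7% for PTGS2, 39.7% for PLA2G4A and 72% for PTGER4, with a median of 58.7% over all windows. A match describes letters only.

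**Figure D1:**
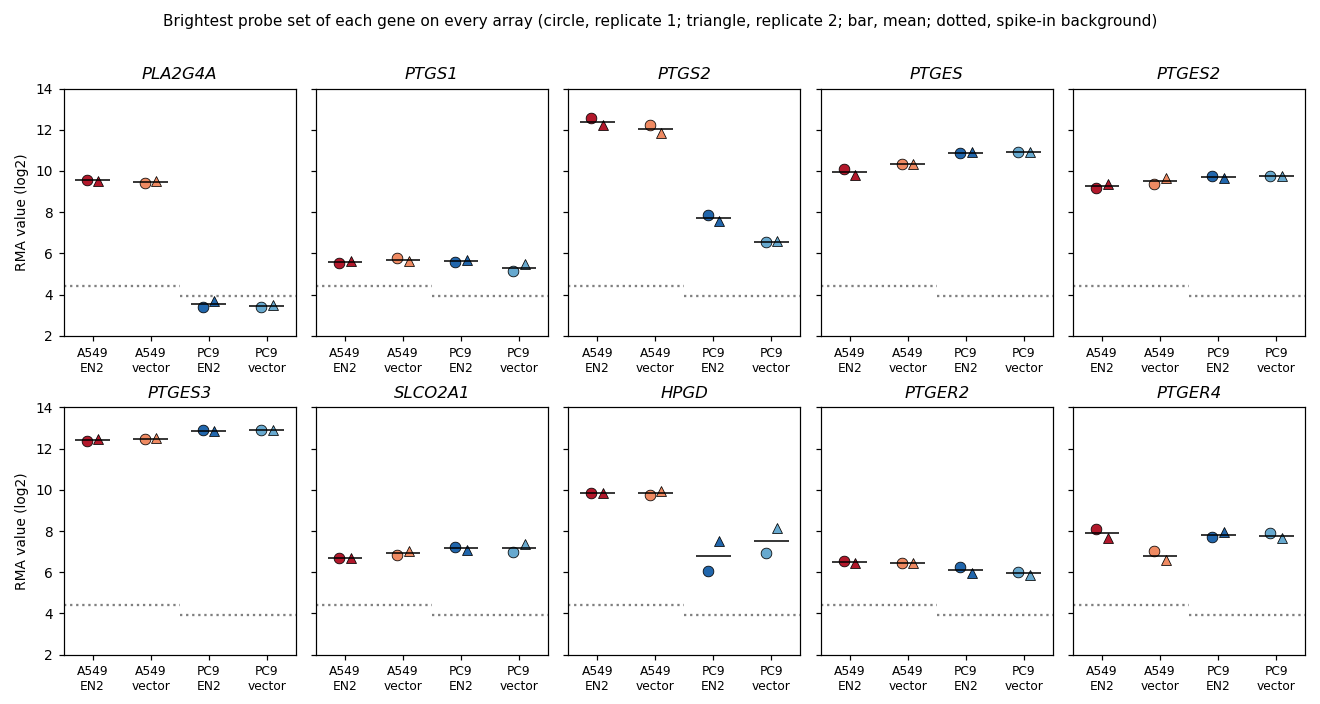
Log2 RMA value (y axis) of the brightest probe set of each of the 10 genes on all 8 arrays, by line and by EN2 or vector (x axis), with circles for replicate 1, triangles for replicate 2, bars for group means and dotted lines for the spike-in background of each line. PTGS2, PLA2G4A and HPGD separate the lines, with PLA2G4A under the background on the 4 PC9 arrays, and PTGER4 is lowest on the 2 A549 vector arrays.

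The first comparison asked what EN2 changed in A549. Of the 10 genes, 1 was called higher (PTGER4), 0 were called lower and 9 were not called, beside 2.72% of all 18244 genes called in either direction. The median change of the 10 genes was -0.040, against -0.0015 for all genes. EN2 and vector arrays did not overlap for 7 of the 10 genes, where 47.6% of all genes did not.

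For the release step, PLA2G4A read 9.55 and 9.53 with EN2 against 9.43 and 9.51 with vector in A549. The pairs did not overlap, but the difference of 0.070 ± 0.11 was not called (limma adjusted p = 0.828, 95% interval -0.17 to 0.31).

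Of the cyclooxygenases, PTGS1, the constitutive form, read 5.54 and 5.64 with EN2 against 5.76 and 5.65 with vector in A549. The difference was -0.11 ± 0.12 (limma adjusted p = 0.704), and in its other 3 probe sets the groups overlapped, at 0.022, -0.015 and -0.020. PTGS2 read 12.57 and 12.22 with EN2 against 12.25 and 11.83 with vector, so the pairs overlapped. Its other probe sets read 11.31 and 10.83 with EN2 against 10.82 and 10.33 with vector, and 10.77 and 10.32 with EN2 against 10.30 and 9.62 with vector, with no overlap in either. The 3 differences were 0.35, 0.50 and 0.59. That of the brightest set, 0.35 ± 0.16, did not pass (limma adjusted p = 0.287, unadjusted p = 0.0499). On both A549 groups replicate 2 was below replicate 1 in all 3 sets.

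None of the 3 E synthases was called in A549. PTGES, the inducible microsomal synthase, read 10.10 and 9.83 with EN2 against 10.32 and 10.32 with vector. Both EN2 arrays were below both vector arrays in all 3 of its probe sets, with differences from -0.36 to -0.28. The brightest set differed by -0.36 ± 0.085 (limma adjusted p = 0.0617, 95% interval -0.55 to -0.17), a 1.28-fold lower value. In limma it passed after quantile normalization over all arrays (-0.37, adjusted p = 0.0483) and with the replicate number as a block (adjusted p = 0.0416). It did not pass with a constant prior (adjusted p = 0.107), the mean of probe sets (0.0827) or the A549 arrays alone (0.233). Nor did it pass with brighter genes (0.0594), every probe set (0.0716) or the 18S rRNA signal as a covariate (0.198). Leaving out 1 array gave differences from -0.50 (without EN2 replicate 1) to -0.22 (without EN2 replicate 2).

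PTGES2, a membrane-associated synthase, read 9.19 and 9.35 with EN2 against 9.35 and 9.67 with vector in A549, and 7.83 and 8.08 against 8.24 and 8.44 in its second probe set. The differences were -0.24 (limma adjusted p = 0.264) and -0.39, both with EN2 arrays below vector arrays. PTGES3, the cytosolic synthase that is also the HSP90 co-chaperone p23, read 12.39 and 12.45 with EN2 against 12.46 and 12.52 with vector. Its 4 probe sets differed by -0.073 to 0.052, with EN2 arrays above vector arrays in 2 of them and below in 2, and its brightest by -0.068 (adjusted p = 0.526).

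Transport and breakdown gave no call in A549. SLCO2A1 read 6.67 and 6.68 with EN2 against 6.84 and 7.03 with vector, a difference of -0.26 ± 0.13 (limma adjusted p = 0.373), while its other 2 probe sets were at 0.044 and 0.074. HPGD read 9.83 and 9.86 with EN2 against 9.77 and 9.95 with vector. Its difference was -0.012 ± 0.44 (adjusted p = 0.997), with a 95% interval from -0.99 to 0.97 that is wide because the fit shares 1 estimate of spread per gene with the PC9 arrays.

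Of the receptors, PTGER4 (EP4) read 8.12 and 7.67 with EN2 against 7.04 and 6.59 with vector in A549. Its second probe set read 5.62 and 5.08 with EN2 against 4.83 and 4.75 with vector. Both EN2 arrays were above both vector arrays in each set. The brightest set rose by 1.08 ± 0.18 (limma adjusted p = 0.0155, 95% interval 0.68 to 1.48), a 2.12-fold higher value, and the second set differed by 0.56. With every probe set tested by limma, the brightest set passed (adjusted p = 0.0169) and the second did not (adjusted p = 0.106). The name of the brightest set carries a suffix for probes that may bind other transcripts too. In these bulk samples a change in the share of cells that express a gene and a change in RNA per cell cannot be told apart.

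The PTGER4 values ran in the reverse order of the 18S rRNA signal over the 4 A549 arrays, with the highest PTGER4 value on the array of lowest 18S signal. With that signal as a covariate the difference was 0.27 (limma adjusted p = 0.988). Both EN2 arrays had lower 18S signals than both vector arrays, and the signal hardly varied in PC9. The covariate thus ran with EN2 in A549, and this fit cannot tell signal and EN2 apart. The call was also lost with the A549 arrays alone (adjusted p = 0.127), without EN2 replicate 1 (0.86, adjusted p = 0.12) and without vector replicate 2 (0.86, adjusted p = 0.133). For PTGS2 the covariate gave -0.31 in A549, against 0.35 without it. Beside these values, EN2 itself was 1.11 higher with the covariate (adjusted p = 0.13).

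**Figure D2:**
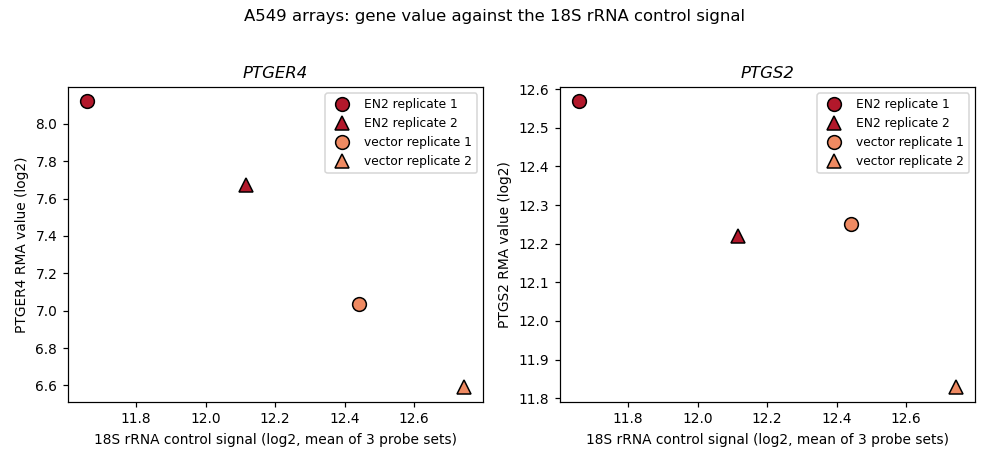
Log2 RMA value (y axis) of PTGER4 at the left and PTGS2 at the right against the 18S rRNA control signal (x axis, log2, mean of 3 probe sets) on the 4 A549 arrays, circles for replicate 1 and triangles for replicate 2, EN2 dark and vector light. PTGER4 is 8.12 at an 18S signal of 11.66 and 6.59 at 12.74, and the 2 EN2 arrays have the lower 18S signals.

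PTGER2 (EP2) read 6.52 and 6.45 with EN2 against 6.47 and 6.44 with vector in A549, a difference of 0.028 ± 0.12 (limma adjusted p = 0.952, 95% interval -0.24 to 0.29). Its dimmer probe set read 5.46 and 4.96 with EN2 against 5.83 and 5.52 with vector, a difference of -0.47. The 2 sets thus did not move alike, and only the dimmer had EN2 arrays below vector arrays.

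The second comparison was EN2 against vector in PC9, where the change of PTGS2 was known when the genes were chosen. Values are therefore described without p-values, and nothing is read from the count. By the rule used in A549, 1 of the 10 genes was called, PTGS2, and 9 were not, beside 0.367% of all genes. The median change of the 10 was 0.020, against 0.0040 for all genes. EN2 and vector arrays did not overlap for 5 of the 10, where 32.9% of all genes did not.

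PTGS2 read 7.88 and 7.56 with EN2 against 6.55 and 6.58 with vector in PC9. The group means were 7.72 ± 0.23 and 6.56 ± 0.022 (SD, n = 2 arrays each), 1.15 apart on the log2 scale or 2.23-fold. Its second set read 6.60 and 6.73 with EN2 against 5.84 and 5.60 with vector, and its dimmest 5.10 and 4.60 against 4.55 and 4.34. All 3 sets had both EN2 arrays above both vector arrays, with differences of 1.15, 0.95 and 0.41. The dimmest set, the one nearest the background of 3.94, had the smallest difference.

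PTGS1 read 5.60 and 5.67 with EN2 against 5.14 and 5.47 with vector in PC9, a difference of 0.32, and all 4 of its probe sets were above 0 by 0.089 to 0.54. PLA2G4A read 3.38 and 3.68 with EN2 against 3.42 and 3.52 with vector. All 4 of these values were below the spike-in background of their array, so no fold is given.

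The E synthases and the transporter lay close together in PC9. PTGES read 10.85 and 10.91 with EN2 against 10.93 and 10.94 with vector. PTGES2 read 9.75 and 9.68 with EN2 against 9.77 and 9.78 with vector, and PTGES3 12.89 and 12.87 against 12.89 and 12.89. The differences of these genes were -0.050, -0.061 and -0.0089. SLCO2A1 read 7.23 and 7.08 with EN2 against 6.97 and 7.39 with vector, so its pairs overlapped at a difference of -0.022.

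HPGD differed more between the replicates than between EN2 and vector in PC9. Its brightest probe set read 6.08 and 7.50 with EN2 against 6.91 and 8.14 with vector. Replicate 2 was above replicate 1 by 1.42 with EN2, a gap larger than that of 99.98% of genes in that group, and by 1.22 with vector, larger than 99.92%. The median of its 8 sets was 5.82 and 6.97 with EN2 against 6.61 and 7.70 with vector. By these medians each EN2 array was below the vector array of the same number, while the 2 groups overlapped in all 8 sets. The difference was -0.74 ± 0.44 in the brightest set, and it lay between -1.45 and -0.024 when 1 array was left out. In A549 the gaps between replicates were 0.030 with EN2 and 0.18 with vector.

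**Figure D3:**
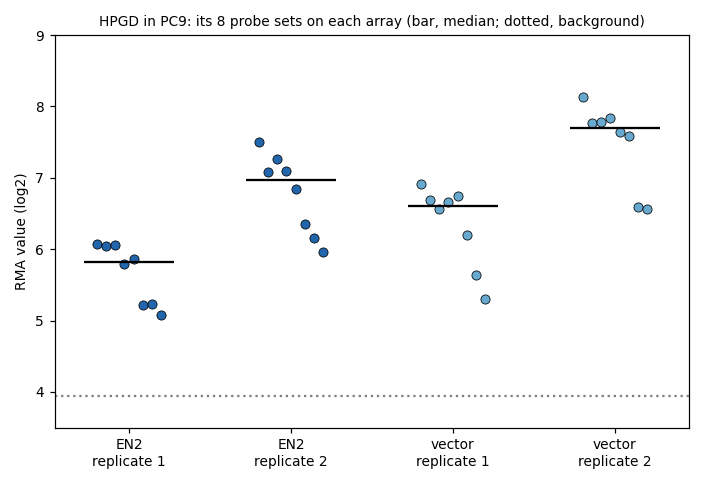
Log2 RMA value (y axis) of the 8 HPGD probe sets on each of the 4 PC9 arrays (x axis: EN2 replicates, then vector replicates), with bars for the array's median and a dotted line for the spike-in background. The medians are 5.82 and 6.97 with EN2 and 6.61 and 7.70 with vector, so the step between replicates is larger than the step between EN2 and vector.

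The receptors were described in PC9 by 2 probe sets each. PTGER4 read 7.71 and 7.96 with EN2 against 7.89 and 7.68 with vector, and 5.24 and 5.21 against 5.16 and 5.29 in its second set. These pairs overlapped, at differences of 0.049 and 0.0037. The brighter PTGER2 set read 6.28 and 5.94 with EN2 against 6.03 and 5.85 with vector, a difference of 0.17. Its dimmer set read 4.13 and 4.26 with EN2 against 3.34 and 3.09 with vector, where both vector arrays were below background, so EN2 was at least 1.17-fold higher. Such bounds set the brighter group's mean against the mean, per array, of the background or the dim value, whichever is higher.

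**Figure D4:**
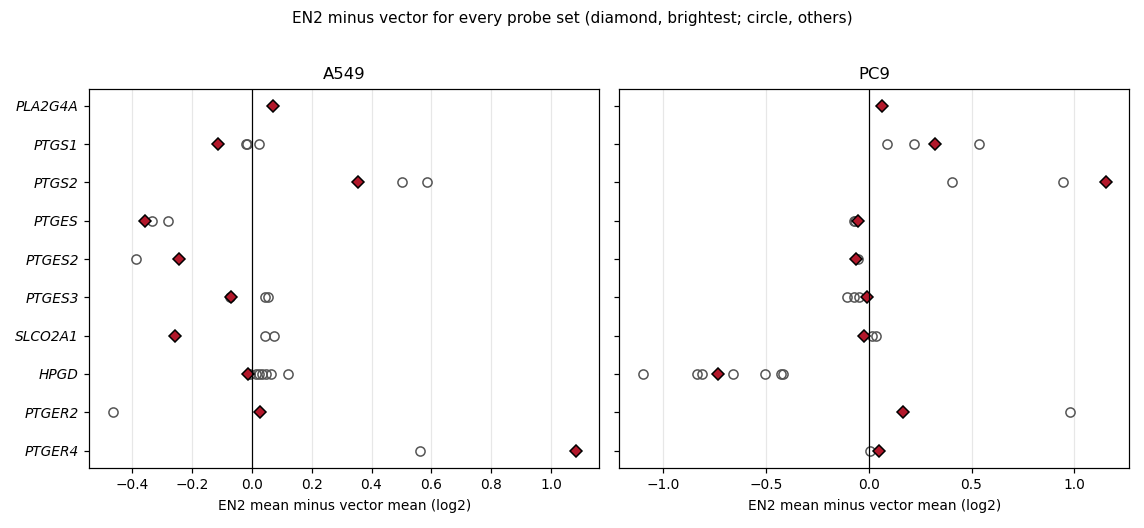
EN2 mean minus vector mean (x axis, log2) for every probe set of the 10 genes (y axis) in A549 at the left and PC9 at the right, with diamonds for the brightest set of a gene and open circles for the others. PTGER4 is at 1.08 and 0.56 in A549 and near 0 in PC9, the 3 PTGS2 sets are above 0 in both lines, and the 3 PTGES sets are below 0 in both.

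Whether a change differed between the lines was tested as a contrast of the 2 changes. Of the 10 genes 0 were called by limma, beside 0.784% of all genes. With the replicate number as a block 1 was called, PTGS2, whose PC9 change the choice had used. The change of PTGER4 was larger in A549 than in PC9 by 1.03 ± 0.25, which did not pass (adjusted p = 0.135, 95% interval 0.47 to 1.60). For PTGES the contrast was -0.31 ± 0.12 (adjusted p = 0.355), and for PTGS1 -0.44 ± 0.16 (adjusted p = 0.328). The change of PTGS2 was lower in A549 than in PC9 by 0.80 on the log2 scale, given as a description. Over every probe set, where 0.537% were called, 1 of the 32 was called, the dimmer PTGER2 set, but as its PC9 vector arrays were below background that call is not used. With the bound for PC9, its contrast was -0.69 or lower, with no test.

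The last comparison set A549 against PC9 with vector alone. Of the 10 genes, 5 were called higher in A549, 4 lower and 1 not at all, beside 75.8% of all genes called in either direction, so a call here is the common case. PTGS2 is among the 5, and the choice of the pathway had used its PC9 vector values. How the authors scaled A549 relative to PC9 is not known. The 18S rRNA signal was 12.44 and 12.74 on the A549 vector arrays against 6.05 and 6.10 on the PC9 vector arrays. That gap cannot be told apart from line, and its part in these differences was not tested. Forcing equal distributions by quantile normalization over all arrays moved the median gene of this comparison by -0.20, and 3 of the 10 were then called higher and 5 lower. Among all called genes 60.8% were higher in A549 as deposited and 47.9% after that normalization. Calls of PTGS2, PTGES, PTGES3, HPGD, PTGER4 and PLA2G4A held under each alternative in which the gene was tested. With every probe set tested, this counted only the brightest set of a gene, and the other PTGES sets were not called.

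PLA2G4A read 9.43 and 9.51 in A549 against 3.42 and 3.52 in PC9 with vector, and 9.55 and 9.53 against 3.38 and 3.68 with EN2. The A549 values were at least 45.4-fold higher with vector and at least 50.7-fold higher with EN2, both bounds because PC9 was below background. With vector, the limma adjusted p of 1.03e-10 belongs to the measured values and not to the bound. PTGS2 read 12.25 and 11.83 in A549 against 6.55 and 6.58 in PC9. The difference was 5.48 ± 0.16 (44.5-fold), and 4.85 and 5.51 in its other sets. No p-value is given for PTGS2, as the choice of the pathway had used its PC9 vector values. With EN2 added, the PC9 mean of 7.72 remained below the A549 vector mean of 12.04. Both neighbours on chromosome 1 thus separated the lines by far more than the spread between replicates.

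HPGD read 9.77 and 9.95 in A549 against 6.91 and 8.14 in PC9 with vector. The difference was 2.33 ± 0.44 (5.03-fold, limma adjusted p = 0.000779), its 8 probe sets ran from 2.33 to 3.25, and leaving out 1 array gave 1.72 to 2.94. A549 thus had more signal for both the enzyme that starts the pathway and the 1 that clears its product.

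PTGER4 had the largest log2 difference of the 4 genes called lower in A549, though PTGES and PTGES3 had smaller adjusted p-values. It read 7.04 and 6.59 in A549 against 7.89 and 7.68 in PC9, with both probe sets lower, by -0.97 ± 0.18 (1.96-fold lower, limma adjusted p = 0.00069) and -0.44. PTGER2 read 6.47 and 6.44 in A549 against 6.03 and 5.85 in PC9, a difference of 0.52 (1.43-fold, adjusted p = 0.00271) that was 0.28 after quantile normalization (adjusted p = 0.0502). Its dimmer set was at least 3.27-fold higher in A549, again against PC9 arrays below background. The EN2 means of PTGER4 in A549, 7.90, and in PC9, 7.83, lay within the spread of the replicates of each other.

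The synthases differed less. PTGES read 10.32 and 10.32 in A549 against 10.93 and 10.94 in PC9, a difference of -0.61 (1.53-fold lower, limma adjusted p = 0.000106), while its other sets were at -0.032 and -0.11. With every probe set tested by limma, neither of those sets was called (adjusted p = 0.799 and 0.213). PTGES3 was lower in all 4 sets, by -0.77 to -0.32, with -0.40 in the brightest (adjusted p = 3.04e-05), which was -0.16 after quantile normalization. For the other genes the probe sets disagreed in sign. PTGES2 gave -0.26 (adjusted p = 0.0401) and 0.31, PTGS1 gave 0.39 (adjusted p = 0.0106), 0.98, -1.06 and -0.78, and SLCO2A1 gave -0.25 (adjusted p = 0.119), 0.78 and 0.58, so no direction is given for them.

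**Figure D5:**
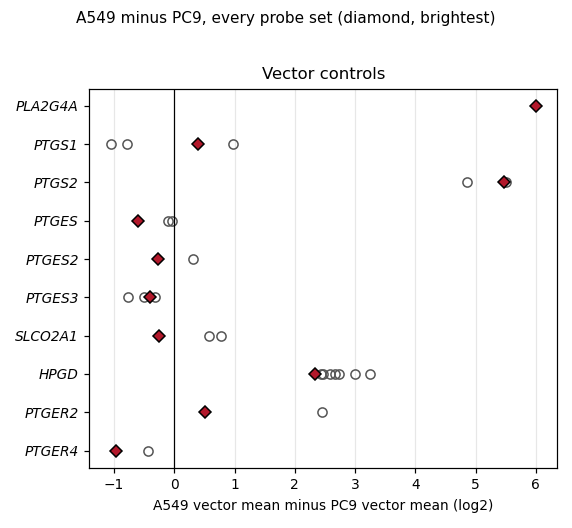
A549 vector mean minus PC9 vector mean (x axis, log2) for every probe set of the 10 genes (y axis), with diamonds for the brightest set and open circles for the others. PLA2G4A and PTGS2 lie near 5 to 6, the 8 HPGD sets between 2.33 and 3.25, and PTGS1, PTGES2 and SLCO2A1 have sets on both sides of 0.

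The level of each gene over the 4 groups followed from these values. For PTGS2 the means were 12.39 ± 0.25 in A549 with EN2, 12.04 ± 0.30 in A549 with vector, 7.72 ± 0.23 in PC9 with EN2 and 6.56 ± 0.022 in PC9 with vector (SD, n = 2). The first pair overlapped and the others did not. HPGD and PLA2G4A were ordered by line alone, with EN2 and vector not separable beyond the spread in PC9. The group means spanned 5.83 for PTGS2, 3.07 for HPGD and 1.08 for PTGER4, and 0.39 to 0.97 for 6 others. For PLA2G4A they spanned at least 5.67, with PC9 at the background, so its place relative to PTGS2 is not set.

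The genes most like each of these 4 in pattern were taken from 4939 genes whose group means spanned at least 1, by Pearson r over the 8 arrays, which share 2 lines. For PTGS2 they were SLC35G2 (0.998), BASP1 (0.998) and SH3BGRL (0.997), and for PLA2G4A they were SPX (0.9999), IGFBP1 (0.9997) and MYO1E (0.9997), where the PC9 values of PLA2G4A are below background. For HPGD they were ANKDD1A (0.993), PARD3B (0.980) and SLC39A10 (0.977). For PTGER4 the likeness was weaker, with PRKAA2 (0.930), NFE2L3 (0.888) and SYTL2 (0.885).

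Other genes of the pathway, 85 in 6 lists, showed few changes with EN2. In A549, 1 was called higher, 3 lower and 81 not, or 4.71% against 2.72% of all genes. By list, 0 of 11 other prostanoid synthases and receptors, 1 of 10 transport and breakdown genes, 3 of 19 genes of arachidonate release and reuptake, 0 of 13 lipoxygenase genes, 0 of 13 receptor-coupling genes and 0 of 20 regulators of PTGS2 were called. In PC9 and in the contrast of the lines 0 were called by limma, beside 0.367% and 0.784% of all genes.

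The 4 called genes in A549 come from lists of genes that handle arachidonate or prostaglandins, so that shared theme was set by the lists. ACSL4, which activates arachidonate for return to membranes, read 10.18 and 10.20 with EN2 against 9.69 and 9.59 with vector, and rose by 0.55 ± 0.066 (limma adjusted p = 0.00286). MBOAT7, which esterifies arachidonate into phosphatidylinositol, read 9.51 and 9.61 with EN2 against 9.80 and 9.89 with vector, a change of -0.29 ± 0.063 (adjusted p = 0.0465). The secreted phospholipase PLA2G12A read 6.64 and 6.80 with EN2 against 7.18 and 7.10 with vector, a change of -0.42 ± 0.084 (adjusted p = 0.0311).

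PTGR1, which reduces prostaglandin breakdown intermediates, read 11.52 and 11.66 with EN2 against 11.91 and 12.04 with vector in A549, a change of -0.38 ± 0.066 (limma adjusted p = 0.0193). It read 12.09 and 12.15 with EN2 against 12.45 and 12.49 with vector in PC9, a difference of -0.35 that did not pass (adjusted p = 0.0965). With the 18S covariate the A549 differences were 0.49 for ACSL4, -0.12 for MBOAT7, -0.33 for PLA2G12A and -0.13 for PTGR1, and no call held. In A549 that covariate ran with EN2, so the fit cannot tell signal and EN2 apart. ACSL4 kept its call without any 1 array, PTGR1 lost it without EN2 replicate 1 or vector replicate 2 of A549, and PLA2G12A and MBOAT7 each lost it without any of several arrays.

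With vector, 46 of the 85 were higher in A549 than in PC9, 23 lower and 16 not called (81.2% called, against 75.8% of all genes). PDE4B, a phosphodiesterase that ends cyclic AMP signals, was at least 44.9-fold higher, with PC9 below background, and PLA2G4C, a relative of PLA2G4A, at least 10.2-fold higher. PDE4D was higher by 4.42 ± 0.096 (log2). MBOAT7 was at -2.57, ALOX5, the 5-lipoxygenase of leukotriene synthesis, at -2.73, and NFATC2, a transcription factor, at -2.97, all lower in A549. Over these 6 genes the limma adjusted p ran from 2.54e-10 to 2.85e-08. For PDE4B and PLA2G4C it belongs to the measured values and not to the bounds.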

How the data were processed

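Total RNA of 8 samples was hybridised to single-colour arrays, and the authors deposited 1 table of log2 values for 49495 probe sets, made with RMA per the submitters' processing notes (version not given in the sources used here). Whether the arrays of both lines were normalised in a single run is not stated. The genes and lists were chosen with earlier results of these data known. Names came from the array annotation and RefSeq (45214 probe sets matched by Entrez identifier), 45284 with 1 symbol, 1333 with several and 2878 with none. A gene was represented by its 1-symbol probe set of highest mean, giving 18244 genes. The brightest PTGER4 and PTGES3 sets and most HPGD sets carry name suffixes for probes that may bind other transcripts too. Dim probe sets were kept, and the number of arrays limits precision.

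The fit used limma 3.58.1 (R 4.3.3), with group means over all 8 arrays, eBayes with an intensity trend, two-sided tests and Benjamini-Hochberg adjustment over all genes, called below 0.05. Alternatives were a constant prior, brighter genes, quantile normalization, mean of probe sets, every probe set, the replicate block, an 18S rRNA covariate, single lines and leaving out each array, where the array left alone takes its spread from the other groups. Named genes were the 10 genes, EN2, at most 6 called genes of the other lists per comparison by smallest p, and the 3 genes most alike per pattern. Replicate numbers were not treated as pairs. Simulated data of the A549 comparison (18244 genes, 200 changed, 5 simulations) gave back 47% of changes of 0.5 and 91.6% of 1 on the log2 scale, with 5.8 false calls on average. The simulated arrays varied independently around the group means. Deviations shared by arrays and the 18S signal were not modelled, so these figures hold for that simpler setting only.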

Additional observations from a re-analysis of the deposited data

Results flagged for a closer look

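The brightest PTGS1 probe set stood out because its arrays moved in opposite directions in the 2 lines: both EN2 arrays were below both vector arrays in A549, at 5.54 and 5.64 against 5.76 and 5.65, and above them in PC9, at 5.60 and 5.67 against 5.14 and 5.47. The change in A549 minus that in PC9 was -0.435 (log2), which limma's test of the difference did not pass (adjusted p = 0.328). In A549 the nearest arrays of the groups read 5.639 with EN2 and 5.648 with vector, and in the other 3 probe sets they overlapped, at 0.022, -0.015 and -0.020.

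The dimmer PTGER2 probe set was picked out by a measured contrast of the lines of -1.444 (log2). Both PC9 vector arrays were below background there, so this value and its test are not used. With the PC9 change as a bound of at least 0.23, the contrast was -0.69 or lower, untested, and the brighter set gave -0.14 (adjusted p = 0.807).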

How the results depend on the processing

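In A549, 1 of the 10 genes was called as reported, PTGER4. After quantile normalization 2 were called, as with the replicate block (PTGER4 and PTGES in both). With the 18S rRNA covariate 0 were called, and 0 with the A549 arrays alone. Without 1 array the call did not always fall on PTGER4, so no count is given. Leaving out EN2 replicate 1 of A549 gave 0.86 for PTGER4 and -0.50 for PTGES. In PC9 the 1 called gene was PTGS2, whose change prompted the choice, so nothing is read from how its call held. The call was lost with the mean of probe sets and without any 1 PC9 array, and stayed with the replicate block. Leaving out 1 array gave PTGS2 differences from 0.99 to 1.31 in PC9. The contrast between lines had 0, and 1 with the replicate block, while the vector comparison had 9 with and without it, and 7 to 9 without 1 array. The block changed no other call among the 10 genes than PTGES in A549 and PTGS2 in the contrast. Deviations of arrays with the same number correlated over genes at 0.349 between EN2 and vector in A549 and at 0.0656 in PC9, and at -0.0818 to 0.152 between lines.

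With the mean of probe sets, 3 vector differences turned: PTGS1 to -0.12, PTGES2 to 0.025 and SLCO2A1 to 0.37. The probe sets of these genes differ in sign, as given above. EN2 itself fell short in A549 with the 18S covariate (1.11, limma adjusted p = 0.13). That signal ran with EN2 in A549, so fits with it cannot tell signal and EN2 apart.

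All-gene calls of 496 in A549 became 976 of all probe sets, 872 with the block, 20 with the 18S covariate, 92 with the line alone and 112 to 623 without 1 array. The 67 of PC9 became 138, 23 with the line alone and 19 to 62 without 1 array. The 143 of the contrast became 266, 10 with the covariate and 40 to 124 without 1 array. The 13823 of the vector comparison became 7164 in brighter genes and 36735 of all probe sets. The cause was not tested. Brighter genes leave out PTGS1, PTGER2 and PLA2G4A.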
